A study of Mus musculus with 24 samples.

Results

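The genes described here are 10 that encode proteins of the vascular basement membrane, out of 55401 genes counted in a mouse series on prostate tumors treated with interleukin-27 (IL-27) and cabozantinib (cabo). They are Col4a1, Col4a2, Lama4, Lamb1, Lamc1, Nid1, Nid2, Hspg2, Agrn and Sparc. The list was chosen by symbol with no limit on any value, but with expression levels and fold changes of these same tumors known from an earlier reading of the data, and no record says which of them counted. Adjusted p-values of the members are therefore given only to set a difference beside the spread between tumors, and they are not independent evidence for any pattern of the list.

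RNA was sequenced from 24 tumors of male C57/BL6 mice, which were 8 to 10 weeks old when obtained and older at harvest. All tumors grew from TC2Ras cells, a line derived from the mouse prostate adenocarcinoma line TRAMP-C2 by transduction with activated H-Ras and the mouse androgen receptor, and the intratibial tumors from its luciferase-expressing form, TC2Ras-Luc. The subcutaneous (SC) tumors came from mice whose muscle was given a control plasmid (2 tumors) or an IL-27 plasmid (2 tumors) by sonoporation, which is ultrasound with microbubbles, and were taken 1 week after implantation. The intratibial tumors came from mice given the control or the IL-27 plasmid in muscle and cabo or its vehicle by mouth. The 4 arms are called control (control plasmid and vehicle), IL-27 (IL-27 plasmid and vehicle), cabo (control plasmid and drug) and IL-27+cabo (both agents). Cabo was gavaged daily at 30 mg/kg in 15% polyvinylpyrrolidone for a stated 2 weeks. The series holds 3 tumors of each arm taken at day 14 and 2 taken at the end of the study (EOS), when mice had reached an ethical endpoint. The paper reports more mice per arm kept to that endpoint than there are EOS tumors here. Cabozantinib inhibits several receptor tyrosine kinases, MET and the VEGF receptors among them, and IL-27 is a cytokine that acts on lymphocytes and other cells. The plasmids went into muscle and not into the tumor, and all tumors came from a single parent cell line. The intratibial labels number separate mice. The SC labels give only replicate numbers, so the SC p-values measure the spread between those samples, which may be technical.

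A basement membrane is a thin sheet of matrix that lies under endothelial and epithelial cells and around pericytes, muscle fibers, fat cells and Schwann cells. Laminin trimers and type IV collagen each form a network, nidogens and perlecan link the networks, and collagen IV gives the sheet its tensile strength. In blood vessels the sheet is laid down by endothelial cells and pericytes together, and sleeves of it can remain after vessels regress. Tumor cells and fibroblasts also make most of these proteins, so no member is a marker of vessels alone.

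Col4a1 (ENSMUSG00000031502, chr8:11198423-11312826, minus strand) and Col4a2 (ENSMUSG00000031503, chr8:11312805-11449287, plus strand) lie head to head, and their GENCODE M21 models on GRCm38 share 22 bases. Their levels moved together across the tumors, so the promoter windows of both are shown. The windows run from 250 bases before to 50 bases after the RefSeq start on GRCm38.p6, chr8:11312777-11313076 for Col4a1 (minus strand) and chr8:11312555-11312854 for Col4a2 (plus strand). Each is written 5′ to 3′ on the strand of its gene. Capitals mark the letters GGGCGG (a GC box) or CCAAT, or their reverse complements.
Col4a1: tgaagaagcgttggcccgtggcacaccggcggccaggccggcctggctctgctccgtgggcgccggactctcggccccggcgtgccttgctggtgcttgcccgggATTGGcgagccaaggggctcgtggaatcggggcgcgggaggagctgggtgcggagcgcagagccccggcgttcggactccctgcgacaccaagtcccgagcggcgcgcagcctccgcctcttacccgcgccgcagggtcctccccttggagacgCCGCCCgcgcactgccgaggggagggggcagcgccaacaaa
Col4a2: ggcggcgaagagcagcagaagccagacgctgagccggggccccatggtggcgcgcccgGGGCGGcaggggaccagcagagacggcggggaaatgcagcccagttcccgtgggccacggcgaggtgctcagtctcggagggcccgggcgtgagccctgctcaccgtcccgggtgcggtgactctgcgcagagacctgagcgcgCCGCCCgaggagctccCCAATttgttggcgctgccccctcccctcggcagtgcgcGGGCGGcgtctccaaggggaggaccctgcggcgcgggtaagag
The windows share 78 bases, chr8:11312777-11312854. The Col4a1 window held 1 GC box and 1 CCAAT, both on the reverse strand. The Col4a2 window held 2 GC boxes and 1 CCAAT on its own strand and 1 GC box on the other, and neither window held TATAAA on either strand. Of 32851 promoter windows of the same length, 35.7% held GGGCGG, 37.4% CCAAT and 13.6% TATAAA on at least one strand. A match is a description of letters and not a site shown to be bound.

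Each library held between 63729005 and 83782258 counts on genes, and the lowest count of any member in a tumor was 174. All 10 members passed the filter on low counts in every comparison. All 22 genes of an endothelial marker list were detected in every tumor. Of the 6 prostate markers looked for, Hoxb13 and Pbsn were at 0 in all 24 tumors. One library stood apart, that of mouse 20 of the day 14 IL-27+cabo group. It had the lowest total (63729005), 21269 genes detected against 23739 and 24028 in the other tumors of its group, and a correlation with them down to 0.931. Its member levels were below those of mice 22 and 24 by a median of -1.61 (log2), against -0.21 over 14184 genes. Lamc1 was 5.5-fold lower, Nid1 5.41-fold lower, Hspg2 4.98-fold lower, and Lamb1 and Sparc 1.37-fold lower. In this library the ratio to mice 22 and 24 also moved with exon length, from a median log2 ratio of 0.94 in 3544 genes with the shortest exons (up to 2568 bases) to -0.94 in 3544 genes with the longest (from 6654 bases), and 7 of the 10 members have exons of that length. The part of length in the low member values was not tested. Values of that group that a difference turns on are given with and without mouse 20.

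Levels were compared between genes as CPM (counts scaled to a common library size by the TMM method) per kilobase of exon, over the 20 intratibial tumors. Sparc had the highest median at 341 CPM per kb (range 241 to 436). Col4a1 followed at 117 (24.1 to 195), Nid1 at 103 (18.1 to 129), Lamb1 at 96.1 (58.2 to 130), Col4a2 at 89.4 (35.1 to 170), Lamc1 at 73.3 (12.2 to 111) and Hspg2 at 61.8 (12.7 to 84.9). The ranges of these neighbors below Sparc overlapped, so their order does not stand out from the spread between tumors. Lama4 at 10.2 (5.0 to 13.8), Agrn at 9.79 (2.83 to 16.2) and Nid2 at 5.81 (0.630 to 13.2) formed a lower set whose ranges overlapped each other. The lowest values of Lamc1 and Hspg2 were those of mouse 20, and only through them did the ranges of these genes reach that of the lower set.

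Nid2 (ENSMUSG00000021806, chr14:19751265-19811787), the lesser of both nidogen genes in these tumors, had the widest span of all members. Its highest intratibial value in CPM was 20.9-fold the lowest, and 6.39-fold without mouse 20. Sparc had the narrowest span at 1.81-fold. The plot of CPM in each tumor shows this spread by group.

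**Figure D1:**
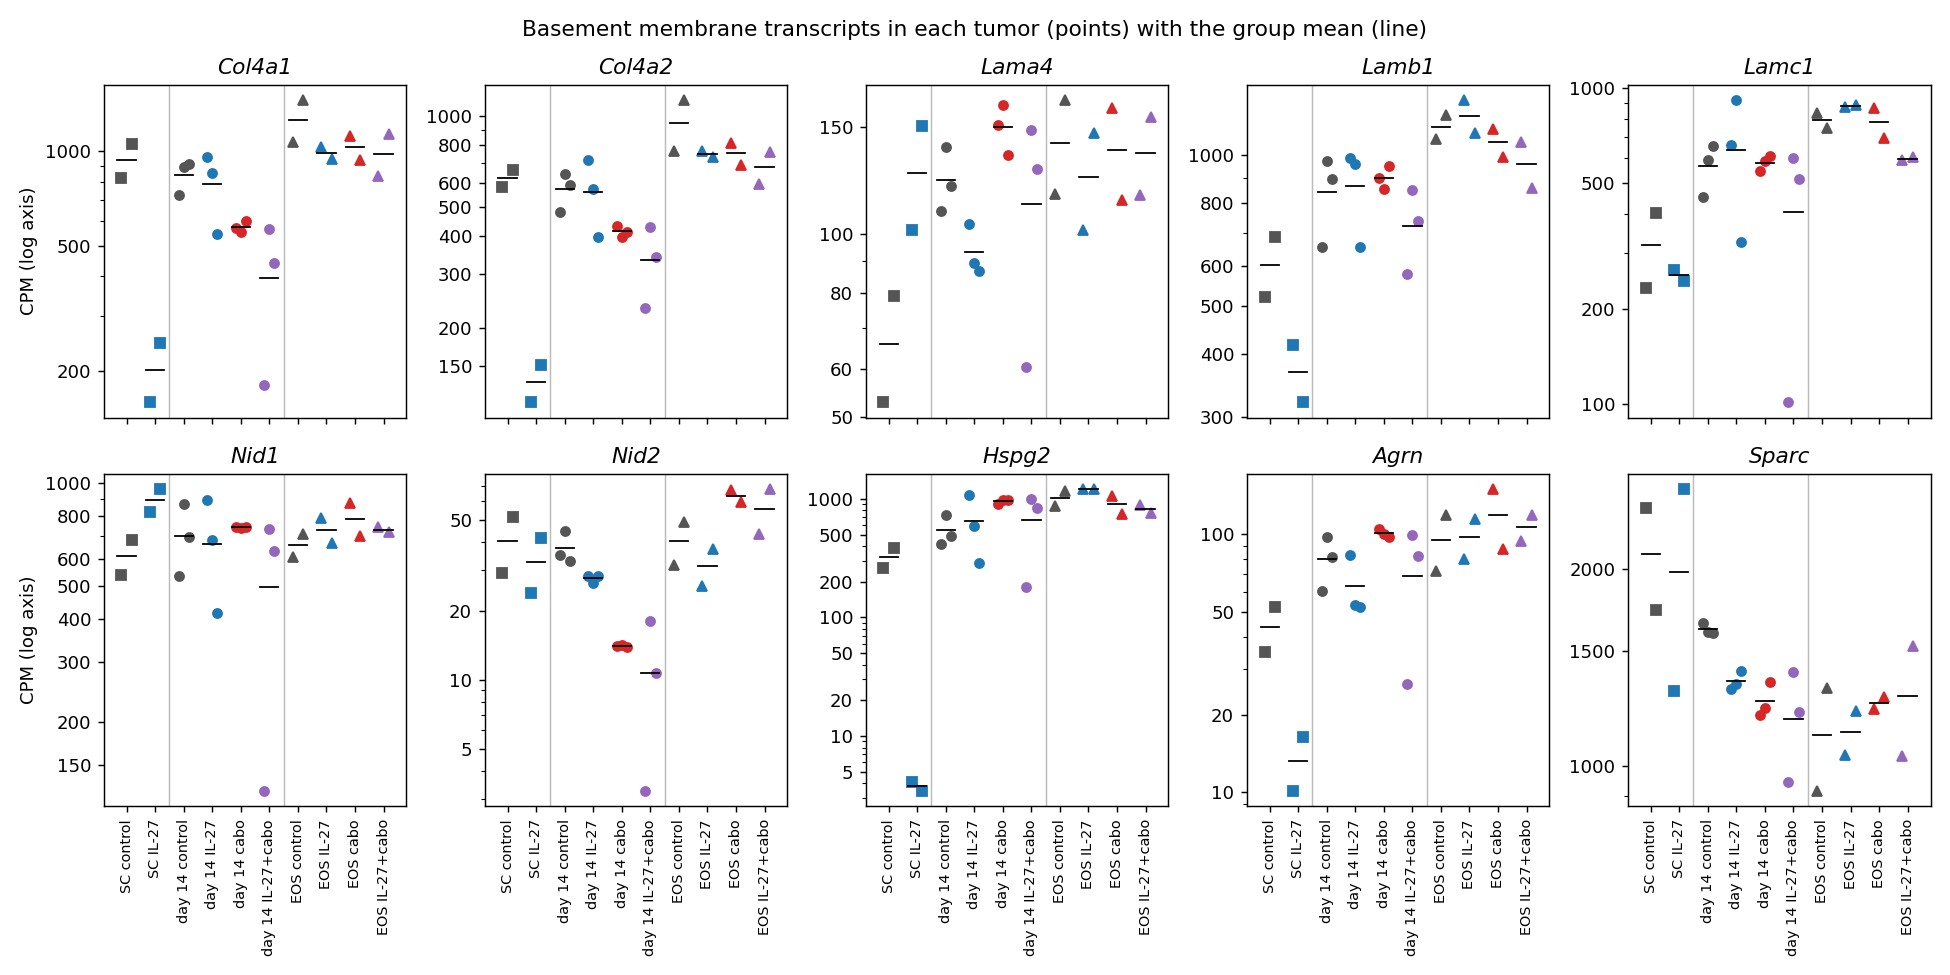
CPM of each member (log axis, a scale for each panel) in every tumor of the 10 groups, with squares for SC, circles for day 14 and triangles for EOS, and a line at the group mean. Nid2 sits near 14 CPM in the 3 day 14 cabo tumors and at 59.4 and 67.4 CPM in the EOS cabo tumors, and Hspg2 near 4 CPM in the SC IL-27 tumors. SC and intratibial tumors were normalized apart.

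The day 14 comparison of cabo with control asks how the drug alone changed the tumors at the end of dosing. Nid2 fell by edgeR's test, in which 1 of 10 members passed an adjusted p of 0.05 as lower and 0 as higher. Over all 18627 genes tested, 0.693% passed as lower and 1.2% as higher, from which nothing is read about a list chosen with these results known. The groups did not overlap for 4 members that were lower and 1 that was higher under cabo, as for 13.5% and 13.6% of genes. Nid2 stood at 35.2, 44.6 and 32.9 CPM in control tumors (mean 37.5 ± 6.20, SD, n = 3) and at 14.1, 14.2 and 13.9 CPM in cabo tumors (mean 14.0 ± 0.132, n = 3). The groups did not overlap. The log2 fold change was -1.44 ± 0.135 (SE), with an edgeR adjusted p of 0.00331. With all intratibial groups in a single fit the value for Nid2 was -1.42 (edgeR adjusted p = 0.329), and with a score of muscle genes as a covariate it was -1.93 (edgeR adjusted p = 0.410), so the call was lost in both. Nid2 shares 437 exon bases, or 8.45% of its own, with Rtraf on the opposite strand, whose level was 84.4 to 93.1 CPM under cabo and 94.0 to 122 CPM in controls. Whether the counting used strand is not given in the sources used here.

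The collagen IV genes were lower under cabo in every tumor but did not pass the test. Col4a1 stood at 724, 895 and 910 CPM in control tumors and at 572, 554 and 599 CPM in cabo tumors, a log2 difference of -0.58 ± 0.115 (edgeR adjusted p = 0.0546). Col4a2 stood at 481, 645 and 589 CPM against 433, 400 and 414 CPM, a log2 difference of -0.48 ± 0.122 (edgeR adjusted p = 0.0997). For neither gene did the groups overlap. Sparc (ENSMUSG00000018593, chr11:55394500-55423183), a matricellular glycoprotein that binds collagen IV and helps it leave the cell, stood at 1652, 1604 and 1598 CPM in controls and at 1195, 1227 and 1344 CPM under cabo, also without overlap (log2 difference -0.39 ± 0.091, edgeR adjusted p = 0.0822).

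Hspg2 (ENSMUSG00000028763, chr4:137468769-137570630), which encodes the large heparan sulfate proteoglycan perlecan, differed in the other direction. It stood at 415, 726 and 491 CPM in control tumors and at 909, 983 and 973 CPM in cabo tumors. The groups did not overlap, the log2 difference was 0.79 ± 0.194, and the edgeR adjusted p was 0.0921. Lama4, Lamb1, Lamc1, Nid1 and Agrn overlapped between the groups, with log2 differences from 0.01 for Lamc1 to 0.32 for Agrn. DESeq2 called 5 members here, Nid2, Col4a1, Col4a2 and Sparc lower and Hspg2 higher, where it called 3.47% of genes lower and 4.55% higher. In the fit of all intratibial groups and in the fit with the muscle score edgeR called 0 members, and Hspg2 turned to -0.26 with the muscle score. Summed muscle genes did not overlap between control and cabo tumors, so that Hspg2 value cannot separate muscle from the drug. Shares of all genes called in these fits are not given here.

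Nid1 (ENSMUSG00000005397, chr13:13437551-13512269), which links laminin to collagen IV as its paralog Nid2 does, stood at 537, 868 and 695 CPM in controls and at 745, 740 and 746 CPM under cabo. Per kilobase, Nid1 was 11.4 to 15.7 times Nid2 in control tumors and 38.9 to 40.0 times in cabo tumors. At EOS the same ratio was 8.76 to 9.70 in cabo tumors and 10.8 to 14.3 in controls. The Col4a1 to Col4a2 ratio, in contrast, stayed between 1.14 and 1.37 in 19 intratibial tumors and was 0.684 in mouse 20.

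**Figure D2:**
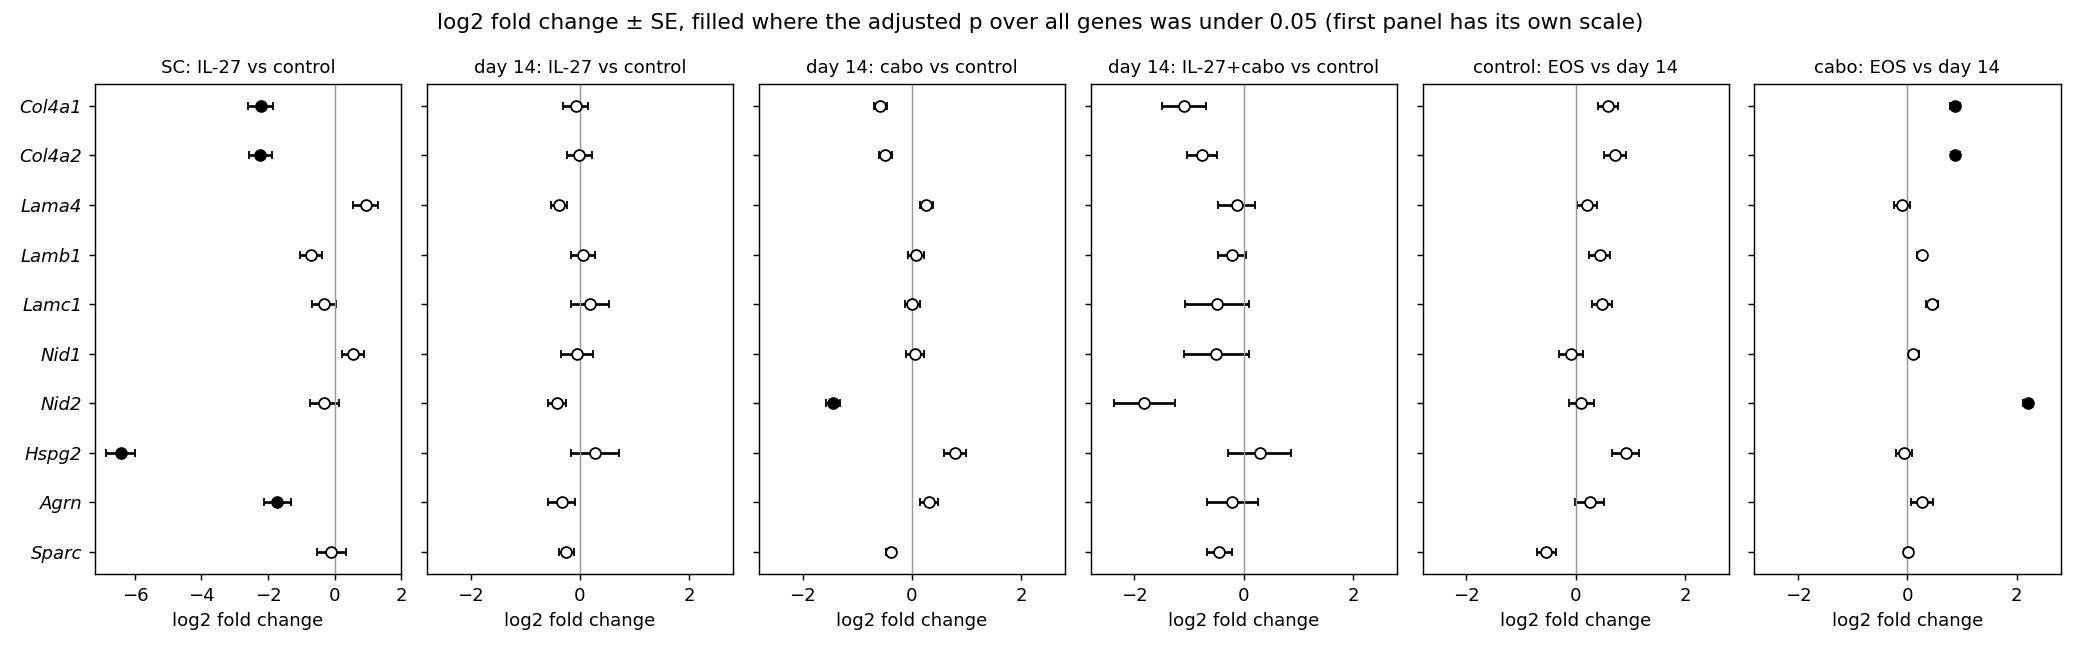
log2 fold change with its standard error for each member in 6 comparisons, filled where edgeR's adjusted p over all genes was under 0.05. Nid2 lies at -1.44 for cabo against control at day 14 and at 2.20 for EOS against day 14 under cabo. The SC panel has its own scale and holds Hspg2 at -6.42.

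Other cell types moved in the same comparison. Of the 22 endothelial markers, 7 passed as lower and 0 as higher (median log2 difference -1.12), and the summed endothelial CPM was 490 to 694 in control tumors and 376 to 435 in cabo tumors. Fewer endothelial cells and less RNA per cell cannot be told apart in bulk tumors. Of the 13 mural markers, 2 passed as lower and 0 as higher (median -0.06), with summed CPM of 347 to 510 in controls and 306 to 474 under cabo. Of 11 fibroblast markers, 1 passed as higher (Col3a1, log2 fold change 0.64) and 0 as lower, with summed CPM of 8919 to 9687 in controls and 11790 to 12640 under cabo. Of 9 macrophage markers, 1 passed as higher (Itgam, 1.11) and 0 as lower, with summed CPM of 877 to 1959 and 1591 to 2065. Of 21 skeletal muscle markers tested, 9 passed as higher and 0 as lower, with summed CPM of 49.4 to 229 in controls and 1552 to 2353 under cabo. Muscle fibers have a basement membrane of their own, and the part of these cells in the member values was not tested. Nid2 per 1000 CPM of endothelial genes was 60.3 to 67.1 in controls and 32.6 to 37.4 under cabo, a sum that the most abundant markers weigh most. The median log2 difference of the markers, -1.12, stands beside -1.44 for Nid2, and that gap was not tested.

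Across the 20 intratibial tumors, Nid2 was the member whose log2 CPM followed the summed endothelial list most closely (Pearson r = 0.87, and 0.89 without mouse 20). Col4a1 and Col4a2 each had an r of 0.68 (0.64 and 0.61 without mouse 20). The r of the remaining members was between 0.17 for Hspg2 and 0.45 for Agrn, and between -0.13 and 0.29 without mouse 20. These are descriptions over tumors that share treatment groups and library composition. The summed list holds no member.

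**Figure D3:**
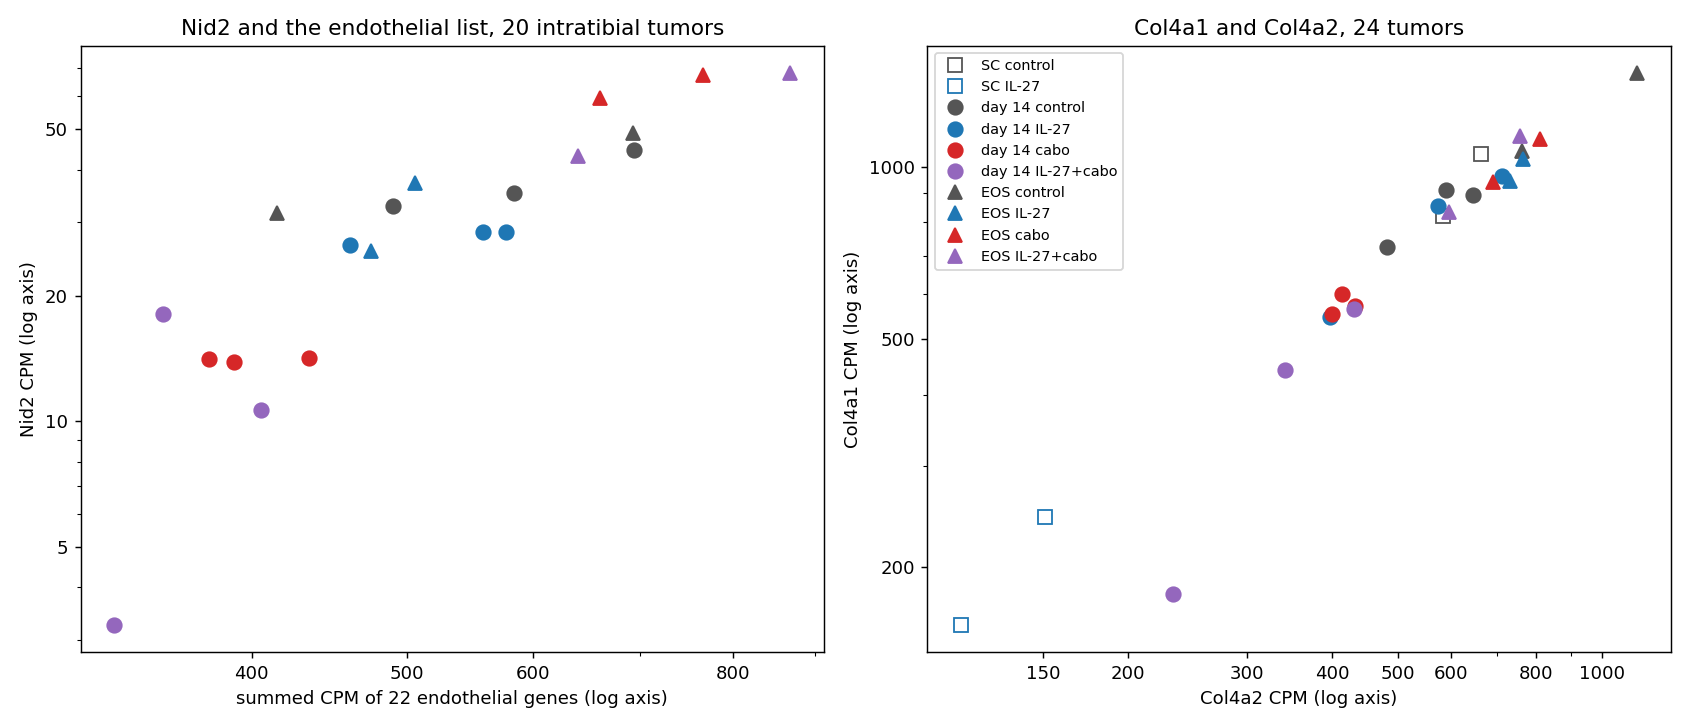
Left, Nid2 CPM against the summed CPM of 22 endothelial genes in 20 intratibial tumors. Right, Col4a1 against Col4a2 CPM in all 24 tumors, with SC tumors (open squares) normalized apart. All axes are log axes. Day 14 cabo and IL-27+cabo tumors lie at the lower left of the left panel, and Col4a1 and Col4a2 fall along a line in the right panel.

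IL-27 alone at day 14 asks what the plasmid did without the drug. EdgeR called 0 of 10 members and DESeq2 0, with 0% of 18519 genes called by edgeR in either direction. At an unadjusted p under 0.05, Nid2 and Lama4 were lower, against 1.85% of all genes lower and 0.913% higher. Nid2 stood at 28.5, 26.4 and 28.4 CPM under IL-27, below the 3 controls (log2 difference -0.42 ± 0.163, edgeR adjusted p = 1.00). Lama4 (ENSMUSG00000019846, chr10:38965515-39110188), the laminin alpha chain typical of vessels, stood at 104, 89.5 and 86.7 CPM against 109, 139 and 120 CPM (log2 difference -0.38 ± 0.148, edgeR adjusted p = 1.00). The tumor of mouse 8 was the lowest of the IL-27 group for Col4a1 (546 CPM against 963 and 855), Lamc1 (326 against 661 and 917) and Hspg2 (288 against 1075 and 586). The spread within this group was thus wide for those genes.

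IL-27+cabo against control at day 14 gave 0 calls of 10 members with edgeR and 0 with DESeq2, against 0.0427% of genes called lower and 0.0213% higher by edgeR. At an unadjusted p under 0.05, Nid2, Col4a1 and Col4a2 were lower, with 1.97% of all genes lower and 4.23% higher at that limit. Nid2 stood at 18.1 and 10.7 CPM in mice 22 and 24 and at 3.26 CPM in mouse 20, all below the controls (log2 difference -1.82 ± 0.560, edgeR adjusted p = 0.510). Without mouse 20 the difference was -1.40 (edgeR adjusted p = 0.0688). Col4a1 stood at 564, 441 and 180 CPM, again below every control, with a log2 difference of -1.10 ± 0.406 and -0.76 without mouse 20. Col4a2 stood at 431, 341 and 233 CPM, with differences of -0.77 ± 0.278 and -0.59. Hspg2 stood at 991 and 830 CPM in mice 22 and 24 and at 182 CPM in mouse 20, so its log2 difference of 0.29 became 0.73 without that mouse. The summed endothelial CPM was 352 and 406 in mice 22 and 24 and 328 in mouse 20, against 490 to 694 in controls. Mural genes summed to 217 to 327 CPM against 347 to 510, and muscle genes to 1979 to 5392 CPM against 49.4 to 229. The part of cell content in the member values was not tested.

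Adding either agent to the other gave 0 member calls with edgeR and with DESeq2, and edgeR called 0% of genes in both comparisons. At an unadjusted p under 0.05 the counts were 0 members against cabo (0.289% of genes lower and 1.63% higher) and 1 against IL-27, Nid2 lower (1.67% of genes lower and 3.17% higher). That Nid2 difference was -1.41, and -0.97 without mouse 20. Against cabo alone the log2 differences of all 10 members were negative, from -0.57 for Nid1 to -0.06 for Sparc. Without mouse 20 they ran from -0.19 for Col4a1 to 0.06 for Sparc, so their size rested on that library. The interaction of both treatments gave 0 calls with edgeR and DESeq2 and 0 at an unadjusted p under 0.05 (1.4% of genes higher and 0.482% lower). Its value was 0.02 ± 0.592 for Nid2 and -0.46 ± 0.474 for Col4a1, and without mouse 20 these became 0.47 and -0.10.

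EOS against day 14 under cabo compares tumors at the endpoint with tumors taken when the stated dosing closed. Nid2, Col4a2 and Col4a1 rose, the 3 calls of 10 members, all higher, against 0.945% of 19144 genes called higher and 1.14% lower. The groups did not overlap for 5 members, all higher at EOS, as for 18.6% of genes higher and 18% lower. Nid2 stood at 67.4 and 59.4 CPM at EOS (mean 63.4 ± 5.69, n = 2) and near 14 CPM in the 3 day 14 tumors. Its log2 fold change was 2.20 ± 0.089, or 4.59-fold, with an edgeR adjusted p of 0.00139. Col4a1 stood at 1120 and 940 CPM against 554 to 599 CPM (log2 fold change 0.87 ± 0.093, edgeR adjusted p = 0.0109). Col4a2 stood at 811 and 690 CPM against 400 to 433 CPM (log2 fold change 0.88 ± 0.089, edgeR adjusted p = 0.00898). None of these groups overlapped.

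Neither the laminin chains nor the other members passed edgeR's test between those groups, and DESeq2 called 4 members as higher, the same 3 genes and Lamc1, where it called 4.13% of genes higher. Lamc1 (ENSMUSG00000026478, chr1:153218922-153332786), the gamma chain of most laminins, stood at 866 and 693 CPM against 546, 586 and 609 CPM (log2 difference 0.45 ± 0.108, edgeR adjusted p = 0.101, DESeq2 adjusted p = 0.00186). Lamb1 (ENSMUSG00000002900, chr12:31265234-31329644), its beta partner, stood at 1128 and 990 CPM against 898, 853 and 949 CPM (log2 difference 0.26 ± 0.089, edgeR adjusted p = 0.207). Lama4 stood at 161 and 114 CPM against 151, 163 and 135 CPM, with overlap. Hspg2, Sparc, Nid1 and Agrn overlapped too, with log2 differences between -0.07 and 0.26. The Nid2 value was 2.18 with all intratibial groups in a single fit, where edgeR called 0 members (Nid2 adjusted p = 0.0521). That fit also holds mouse 20, and its value without that mouse is not given here. Without mouse 21 only Nid2 was called of the 10 members. In a choice made after seeing the data, the muscle score as covariate and removal of the GC and length trend each kept the same 3 calls. Summed muscle genes did not overlap between these groups either, so the muscle score was not independent of the group. Shares of all genes called in these fits are not given here.

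Beside these, 12 of 22 endothelial markers passed as higher and 0 as lower (median log2 difference 1.48), and the summed endothelial CPM was 661 and 766 at EOS against 376 to 435 at day 14. Of the 13 mural markers, 3 passed as higher and 0 as lower, and of 11 fibroblast markers 4 passed as lower and 0 as higher, with summed CPM of 6987 and 7938 at EOS against 11790 to 12640. Of 9 macrophage markers, 2 passed as lower (Itgam and Mrc1) and 0 as higher, with summed CPM of 1091 and 1105 against 1591 to 2065. Of 5 erythroid markers tested, 3 passed as higher and 0 as lower. Nid2 per 1000 CPM of endothelial genes was 88.0 and 89.9 at EOS against 32.6 to 37.4 at day 14. Skeletal muscle genes summed to 197 and 1253 CPM at EOS against 1552 to 2353 CPM. The part of cell content in the member values was not tested.

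In the other arms EOS against day 14 gave 0 member calls with edgeR when only the groups compared were fitted. In controls, the unadjusted limit of 0.05 was passed by Col4a1, Col4a2, Lamc1 and Hspg2 as higher and by Sparc as lower, where 5.9% of genes were higher and 7.22% lower, and DESeq2 called 2 members as higher, Col4a2 and Hspg2, with 1.21% of genes. EdgeR called 0% of genes higher and 0.104% lower there. Hspg2 stood at 876 and 1172 CPM at EOS against 415 to 726 CPM (log2 difference 0.92 ± 0.253, edgeR adjusted p = 0.234), and Sparc at 914 and 1315 CPM against 1598 to 1652 CPM (-0.54 ± 0.177, edgeR adjusted p = 0.294). Neither overlapped. Nid2 in controls stood at 31.6 and 48.9 CPM at EOS, overlapping the day 14 controls (log2 difference 0.10).

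In the IL-27 arm 1 member passed at an unadjusted p under 0.05, Agrn as higher, where 1.97% of genes were higher and 3.08% lower, and DESeq2 called 0 and edgeR 0% of genes. Agrn (ENSMUSG00000041936, chr4:156165290-156197488), a heparan sulfate proteoglycan of vessels and of the nerve-muscle junction, stood at 80.5 and 115 CPM at EOS against 83.1, 53.2 and 52.2 CPM (log2 difference 0.64 ± 0.267, edgeR adjusted p = 0.818), with overlap. In the IL-27+cabo arm edgeR called 0% of genes. Nid2, Col4a1 and Col4a2 were higher at the unadjusted limit, where 1.04% of genes were higher and 2.79% lower, and DESeq2 called Nid2 alone as higher, with 0.31% of genes. Nid2 stood at 43.1 and 68.1 CPM at EOS against 3.26, 18.1 and 10.7 CPM at day 14 (log2 difference 2.38 ± 0.671, edgeR adjusted p = 0.750). Without mouse 20 it was 1.95 (edgeR adjusted p = 0.195), and with all intratibial groups in a single fit Nid2 was called at 2.38 (edgeR adjusted p = 0.0220). The log2 differences of Col4a1 and Col4a2 were 1.31 and 1.00, and 0.96 and 0.80 without mouse 20. In this arm the summed endothelial CPM was 640 and 868 at EOS against 352 and 406 in mice 22 and 24 and 328 in mouse 20. Mural genes summed to 357 and 406 CPM against 217 to 327, and muscle genes to 179 and 330 CPM against 1979 to 5392. The part of cell content in the member values was not tested.

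Whether the treatment difference itself changed between day 14 and EOS was tested in a fit of all intratibial tumors. These tests share their control tumors. For cabo, edgeR and DESeq2 called 0 members, against 0.0788% of genes called higher and 0% lower by edgeR, and 1 member, Nid2, passed an unadjusted p of 0.05 as higher (2.05% of genes higher and 2.06% lower). The Nid2 difference of the log2 fold changes was 2.07 ± 0.627 (edgeR adjusted p = 0.824). The spread in that fit includes mouse 20 of the IL-27+cabo arm (Nid2 at 3.26 CPM), and no cabo value without that mouse is given here. For IL-27+cabo, edgeR called 0 members and DESeq2 called Nid2 as higher (0.661% of genes), against 0.0696% of genes called higher and 0.00928% lower by edgeR. Nid2 and Sparc passed the unadjusted limit as higher, as did 3.88% of genes, with 5.26% lower. The Nid2 value was 2.28 ± 0.628 (edgeR adjusted p = 0.352), and 1.86 without mouse 20 (edgeR adjusted p = 0.0679). The Sparc value was 0.65, and 0.53 without mouse 20.

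Treatments against control at EOS gave 0 member calls with edgeR and with DESeq2 in each of the 3 comparisons, and edgeR called 0% of genes. At an unadjusted p under 0.05, 0 members passed for IL-27 (1.57% of genes higher, 1.68% lower) and for cabo (4.54% and 4.36%). For IL-27+cabo, Col4a2 and Lamc1 were lower, with 6.8% of genes lower and 7.36% higher. Lamc1 stood at 591 and 605 CPM against 835 and 745 CPM in EOS controls (log2 difference -0.41 ± 0.132, edgeR adjusted p = 0.251). Nid2 in the EOS cabo tumors lay above both EOS controls (log2 difference 0.65 ± 0.295, edgeR adjusted p = 0.580).

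In SC tumors, IL-27 against control asks what the plasmid did to tumors outside bone. Hspg2, Col4a2, Col4a1 and Agrn fell, 4 of 10 members called lower and 0 higher, against 16.5% of 19360 genes called lower and 3.52% higher. The groups did not overlap for 5 members that were lower and 2 that were higher, as for 35% and 31.9% of genes. Hspg2 stood at 263 and 384 CPM in control tumors (mean 324 ± 85.6, n = 2) and at 4.13 and 3.42 CPM in IL-27 tumors (mean 3.78 ± 0.500, n = 2). Its log2 fold change was -6.42 ± 0.436 (edgeR adjusted p = 0.00139). Col4a1 stood at 821 and 1053 CPM against 159 and 245 CPM (-2.22 ± 0.379, edgeR adjusted p = 0.00777). Col4a2 stood at 582 and 664 CPM against 114 and 151 CPM (-2.24 ± 0.344, edgeR adjusted p = 0.00527). Agrn stood at 35.0 and 52.2 CPM against 10.1 and 16.5 CPM (-1.72 ± 0.411, edgeR adjusted p = 0.0280). None of these groups overlapped, and Agrn kept its call in 1 of the 4 fits that left out a tumor, that without IL-27 replicate 2.

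The 6 other members did not pass. Lama4 stood at 101 and 150 CPM under IL-27 and at 52.8 and 78.9 CPM in controls (log2 difference 0.94 ± 0.373, edgeR adjusted p = 0.124), and Nid1 at 823 and 963 CPM against 538 and 684 CPM (0.55 ± 0.327, edgeR adjusted p = 0.274). Lamb1 stood at 417 and 321 CPM against 521 and 685 CPM (-0.71 ± 0.342, edgeR adjusted p = 0.187). Sparc, Lamc1 and Nid2 overlapped between the groups. The Col4a1 to Col4a2 ratio per kilobase was 1.24 to 1.44 in IL-27 tumors and 1.25 to 1.41 in controls, while Col4a1 to Lamc1 was 0.663 to 1.11 against 2.91 to 3.90.

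The SC values moved with GC content. The 4 members that fell have the highest exon GC of the 10, at 60.9% for Hspg2, 60.6% for Col4a2, 57.7% for Col4a1 and 56.5% for Agrn, and the others lie between 50.0% and 54.6%. Across the 10 genes, Pearson's r of log2 fold change and GC was -0.87, and it was -0.59 across 19334 tested genes, which are not independent replicates. The median log2 fold change was -2.05 in the 4834 genes of highest GC and 0.85 in the 4835 of lowest GC. With each library's trend in GC and length removed, only Hspg2 was called of the 10 members, at -3.44 (edgeR adjusted p = 0.00704), and Col4a1, Col4a2, Agrn, Nid2, Lamc1 and Sparc changed sign to 0.19, 0.71, 0.38, 1.09, 0.55 and 0.47. The direction of those 6 genes in SC tumors therefore hung on that choice. The part of GC content in the SC values as deposited was not tested beyond removal of this trend. The share of all genes called with the trend removed is not given here, so nothing is read from the member count in that fit.

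**Figure D4:**
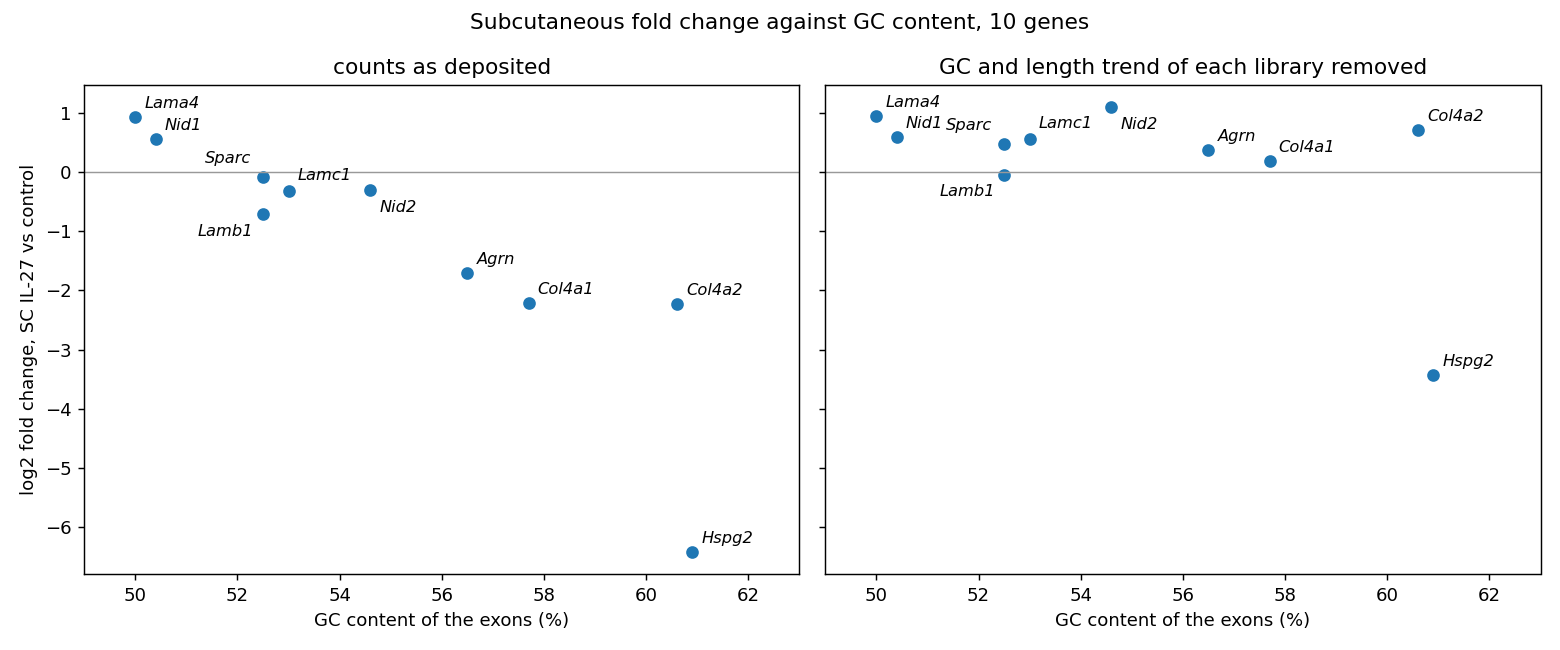
log2 fold change of IL-27 against control in SC tumors against exon GC content (%) of the 10 members, from the counts as deposited (left) and with the GC and length trend of each library removed (right). Hspg2 lies lowest in both panels, with values of -6.42 and -3.44.

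Markers of other cells differed in these tumors too, where fold changes followed GC content across genes (median -2.05 at the highest GC). No marker values with that trend removed are given here. Of 22 skeletal muscle markers, 18 passed as higher and 1 as lower, with summed CPM of 56.5 and 107 in controls and 477 and 1380 under IL-27. Of 22 endothelial markers, 0 passed as higher and 3 as lower, with summed CPM of 728 and 792 against 770 and 1623. Of 5 epithelial markers tested, 2 passed as lower. Of 9 macrophage markers, 4 passed as lower and 0 as higher, with summed CPM of 2334 and 3572 in controls and 2623 and 4139 under IL-27. Among those that did not pass, Itgam, Adgre1 and Mrc1 were higher without overlap, Csf1r was lower without overlap, and Lyz2 overlapped. Of 11 fibroblast markers, 3 passed as higher (Postn, Fap and Lum) and 2 as lower (Col1a1 and Pi16), with summed CPM of 8661 and 10140 against 8839 and 14300. Of 13 mural markers, 2 passed as higher and 3 as lower, and of 6 granulocyte markers tested 5 passed as higher. Their part in the member values was not tested.

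The rest of the basement membrane was followed in 77 listed genes, namely 29 further structural genes, 19 for collagen assembly, 17 receptors and 12 for remodelling. Under cabo at day 14, 5 passed as higher and 1 as lower of 77 tested, where 1.2% and 0.693% of all genes did. Fn1, which encodes fibronectin (log2 fold change 0.91 ± 0.137), Col4a5 (0.46 ± 0.088), the cross-linking enzymes Lox (1.19 ± 0.179) and Tgm2 (0.83 ± 0.084) and Loxl4 (0.51 ± 0.097) rose, and Sparcl1, a relative of Sparc, fell (-1.03 ± 0.200). For EOS against day 14 under cabo, 1 passed as higher and 2 as lower of 77, where 0.945% and 1.14% of all genes did. Sparcl1 rose (1.70 ± 0.225), and Lox (-1.19 ± 0.115) and Tgm2 (-0.79 ± 0.085) fell. In SC tumors 4 passed as higher and 25 as lower of 75, where 3.52% and 16.5% of all genes did, and where fold changes followed GC content across genes (median -2.05 at the highest GC). These genes were not tested with that trend removed. Those with the smallest p that fell were Col18a1 (-4.63 ± 0.364) and the laminin chain Lama5 (-4.92 ± 0.406), Bmp1, which trims matrix proteins (-4.22 ± 0.381), and the laminin receptor chain Itga3 (-4.33 ± 0.398). Those that rose were Smoc2 (1.94 ± 0.460), Plod2 (1.41 ± 0.359), Mmp3 (3.74 ± 0.822) and Hpse (2.48 ± 0.609). In the other 13 comparisons edgeR called 0 of these genes.

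Partner chains were set beside the members per kilobase. Lama5 had a median of 6.71 CPM per kb (2.24 to 23.5) in intratibial tumors, beside 10.2 for Lama4, while Lama1, Lama2 and Lama3 had medians of 0.0729, 0.256 and 0.223. Lamb2 had a median of 17.9 against 96.1 for Lamb1. Col4a3 and Col4a4, chains found mainly in kidney, had medians of 0.0331 and 0.0333, and Col4a5 11.7. Lamb1 to Lamc1 was between 0.871 and 1.67 in 19 intratibial tumors and 4.76 in mouse 20.

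The pattern of the members was also compared with every other gene, over the 20 intratibial tumors. Genes whose log2 CPM was most like the mean of the members, by Pearson's r among 21553 genes, included Fnbp1l (0.97), Gm19221 (0.95), Actn1 (0.95), Wipf1 (0.95), Zfp451 (0.95), Lrp5 (0.95), Plag1 (0.94), Nup188 (0.94) and Lcor (0.94). Without mouse 20 the r of these genes was between 0.789 and 0.885. The 45 pairs of members had a median r of 0.66, and 0.35 without mouse 20. Col4a1 and Col4a2 were the pair most alike (0.964, and 0.985 without mouse 20).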

How the data were processed

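RNA from 24 mouse tumors was poly(A) selected, made into stranded libraries and sequenced by a commercial provider. Per the study's methods, reads were trimmed with cutadapt, mapped with HISAT2 and assembled with StringTie. The table used here holds raw counts as deposited by the authors, whole numbers for each Ensembl identifier that were not scaled. The counting program, build and strand setting behind the counts are not given in the sources used here. The submitters' processing notes list GRCh38, a human build. Of counts from 1 to 20, between 30.4% and 35.5% in each library were multiples of 4, so the reads may be fewer than the counts. Identifiers were named with GENCODE M21, which held 55141 of 55401.

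Counts were filtered with filterByExpr, scaled by TMM and tested with edgeR 4.0.16 (quasi-likelihood F test, two-sided, R 4.3.3), with Benjamini-Hochberg adjustment over all genes tested. A gene was called at an adjusted p under 0.05. Pairwise day 14, EOS against day 14 and SC fits used only the groups compared. The EOS treatments shared a fit of the 4 EOS groups, and the differences of effects a fit of all intratibial groups. SC and intratibial tumors were normalized apart. Log2 CPM used a prior count of 2. Alternatives were DESeq2 1.42.0, other scaling and filters, a muscle score, spline removal of GC and length trends, a replicate block, counts divided by 4 and leaving out each tumor. The scripts were tested on simulated data.

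The members and all lists (29 structural, 19 assembly, 17 receptor and 12 remodelling genes of basement membranes, and cell type markers) were chosen with earlier results of these data known. Named genes were all members, up to 4 called genes per direction with the smallest p among the other basement membrane genes, partner chains of a member, and the 10 genes most correlated with the mean of the members, 1 of which is not reported here.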

Additional observations from a re-analysis of the deposited data

Results flagged for a closer look

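Under the same treatment, 3 members had every treated tumor to one side of its controls at one site or time and to the opposite side at another. Of all genes tested at every site or time of a treatment, 13.4% did so under IL-27 (2 of 10 members), 3.86% under cabo (1 of 10) and 2.77% under IL-27+cabo (0 of 10), and nothing is read from the member counts. Lama4 was higher under IL-27 in SC tumors (log2 difference 0.935) and lower at day 14 (-0.378). Hspg2 was lower under IL-27 in SC tumors (-6.421) and higher at EOS (0.231). Neither difference between comparisons was tested, since SC and intratibial tumors were normalized apart. Nid2 was lower under cabo at day 14 (-1.44) and higher at EOS (0.649). For Nid2 the difference itself was tested, at 2.07 on the log2 scale with an edgeR adjusted p of 0.824. That fit of all intratibial groups holds mouse 20, and no value without that mouse is given here. No group held the 4 tumors needed to look for single outlying tumors.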

How the results depend on the processing

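Over 36 member results with an unadjusted p under 0.05 or a call in some setting, 387 alternative values were computed, of which 349 kept direction and side of the threshold, 10 lost the call, 17 gained one and 11 turned sign. Shares of all genes called are given in this report for the main edgeR fits and DESeq2 only. Nothing is therefore read from member counts under the other settings. In SC tumors 4 members were called, 1 with the GC and length trend removed, 2 when a replicate block was added to that, and 3 to 4 without each tumor in turn. With the trend removed Col4a1, Col4a2, Nid2 and Agrn turned to 0.189, 0.710, 1.094 and 0.377, and with the block as well to 0.167, 0.701, 1.122 and 0.351. Lamc1 and Sparc also turned sign with the trend removed, to 0.551 and 0.467. Nid2 there ran from -0.767 to 0.126 without each tumor. Deviations of replicate 1 in the SC groups had an r of 0.031 over 19360 genes, which cannot show whether the samples were paired. The block alone left 4 calls. For cabo at day 14, 1 member was called, against 5 with DESeq2, 4 with the trend removed, 2 with counts divided by 4, and 0 with the muscle score or with all intratibial groups in a single fit, and 1 to 3 without each tumor (3 without control mouse 3, 2 without control mouse 5). Hspg2 turned to -0.264 with the muscle score, which cannot be separated from cabo there since muscle genes did not overlap between the groups. For EOS against day 14, DESeq2 called 2 members in controls, 4 under cabo against 3 with edgeR, and 1 in IL-27+cabo. With all groups in a single fit, which holds mouse 20, the count was 0 under cabo and 1 under IL-27+cabo. Under cabo it was 1 to 3 without each tumor, 1 being without day 14 mouse 21, and 3 with the trend removed or the muscle score, which were chosen after seeing the data. DESeq2 called 1 member in the IL-27+cabo difference of effects. The causes were not tested. Where leaving out a tumor left 1 in a group, it was assumed to vary like the other groups.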

Other observations

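Outside the 10 members, genes most like single members over the 20 intratibial tumors were named after their values were seen. Of those named, Flt1 is also in the endothelial list. For Nid2 they included Plekhg1 (r = 0.95, and 0.925 without mouse 20), Fgd5 (0.948 and 0.91), Vash1 (0.945 and 0.9) and Adgrf5 (0.93 and 0.905). For Col4a2 they included Plekhg5 (0.929 and 0.895), Flt1, which encodes a VEGF receptor (0.924 and 0.895), and Kit (0.917 and 0.884). Col18a1, a gene of the structural list whose product carries endostatin, had a median of 232 CPM per kb in intratibial tumors (96.2 to 507), above the medians of all members but Sparc.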
